A study of Mus musculus with 12 samples.

Results

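The genes described here encode the non-collagen part of the extracellular matrix of mouse fibroblasts: matrix glycoproteins, proteoglycans, elastic fibre proteins, the enzymes that crosslink them, basement membrane proteins and the fibroblast surface protein Thy1. They were taken from a list of 45 gene symbols, matched to the gene names of the array annotation. A total of 42 of the 45 were measured, among 18193 genes on the array. Fbn1 and Efemp2 had no probe set under their symbol, and Loxl2 was found on 2 probe sets that carry several genes, so these 3 genes have no values here. Where a gene had several probe sets, the values given are of the one that was highest on average across the 12 arrays, unless another is named.

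The study compared mouse embryonic fibroblasts (MEFs), connective tissue cells grown from embryos, of 4 genotypes to ask what the retinoblastoma (Rb) family does to gene expression. WT MEFs were wild type, Rb1KO MEFs carried a deletion of Rb1, TKO MEFs carried deletions of Rb1, p107 (gene Rbl1) and p130 (gene Rbl2), and TKO-Ras MEFs carried the same deletions and the mutated Ras given in the labels as RasG12D. All were untreated and growing exponentially, and each group had 3 Affymetrix MOE430 2.0 arrays, labelled as biological replicates. The TKO line was obtained from another laboratory, so genotype and origin of the line cannot be told apart, and nothing states that the 3 replicates of a group came from separate embryos. The p-values therefore measure the spread between these RNA samples, which may be technical in the mutant groups. WT replicate 3 differed from the other WT arrays in a Y-linked gene (given below), so the WT arrays are not all of the same cell sample. Neither the strain nor how the mutated Ras was introduced is given in the sources used here.

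Fibroblasts build their matrix from collagens and from the proteins described here. Fibronectin, tenascins, thrombospondins and periostin link cells to the fibres and modulate adhesion, while fibrillins, fibulins, microfibril-associated proteins and elastin assemble into elastic fibres that give tissue its recoil. Small leucine-rich proteoglycans such as decorin coat collagen fibrils and control their width, versican and aggrecan bind hyaluronan, lysyl oxidases crosslink collagen and elastin, and laminins, nidogens and perlecan form basement membranes. The Rb family proteins restrain E2F transcription factors and so cell cycle entry, and oncogenic Ras signals through the ERK pathway to AP-1 transcription factors.

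Upstream sequence is shown for 3 genes of this set that were lower in both TKO and Rb1KO than in WT, because they combine large changes with promoters that hold searched motifs. The 250 bases before the RefSeq start site are printed 5′ to 3′ on the gene's strand, build GRCm38.p6, with motif matches in capitals. Ecm1 lies on the minus strand (chr3:95739570-95739819) and holds TGAGTCA, a match to the AP-1 motif TGANTCA, and the TATA box TATAAA. Efemp1 lies on the plus strand (chr11:28852955-28853204) and holds the AP-1 match TGAATCA. Tnc lies on the minus strand (chr4:64046937-64047186) and holds the letters TATAAA, which begin at -205 from the start site used here. RefSeq gives Tnc another start site as well, whose upstream sequence (chr4:64047016-64047265) is not printed and holds these letters from -126.
Ecm1: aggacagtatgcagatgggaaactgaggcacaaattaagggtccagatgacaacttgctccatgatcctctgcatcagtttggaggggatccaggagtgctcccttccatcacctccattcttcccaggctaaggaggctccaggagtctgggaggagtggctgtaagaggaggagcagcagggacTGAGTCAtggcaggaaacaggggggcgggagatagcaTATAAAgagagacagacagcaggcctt
Efemp1: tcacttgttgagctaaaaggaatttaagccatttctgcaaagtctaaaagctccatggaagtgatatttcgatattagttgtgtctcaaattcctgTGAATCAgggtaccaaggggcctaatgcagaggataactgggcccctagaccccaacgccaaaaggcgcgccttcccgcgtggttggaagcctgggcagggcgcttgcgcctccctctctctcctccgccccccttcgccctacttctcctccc
Tnc: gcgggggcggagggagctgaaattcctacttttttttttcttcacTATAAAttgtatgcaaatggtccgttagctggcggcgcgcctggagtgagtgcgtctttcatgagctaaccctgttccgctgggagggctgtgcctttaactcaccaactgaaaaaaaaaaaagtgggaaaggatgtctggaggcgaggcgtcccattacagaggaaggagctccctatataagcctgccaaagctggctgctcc

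A RefSeq window of 300 bases, from 250 before to 50 after the start site, was at hand for 24 of the 42 genes, and 4 motifs were searched on both strands. Of the 24 genes, 5 had several windows, and a gene counted when any of its windows held the motif. The E2F motif TTTNNCGC was in 0 of the 24 genes, against 5.93% of 27025 genes with a window. The AP-1 motif TGANTCA was in 2 of 24 (8.33%), Ecm1 and Efemp1, against 8.97% of all genes. The TEAD motif GGAATG was in 4 of 24 (16.7%), Acan, Mfap2, Nid1 and Ogn, against 16.6%. The TATA box letters TATAAA were in 6 of 24 (25%), Aspn, Ecm1, Ogn, Postn, Thbs2 and Tnc, against 15.7%. They began at -27 from the start site in Ecm1 and -26 in Postn, and between -229 and -126 in the others. In Thbs2 the only match was on the other strand. These are matches of letters in a short window, and they say nothing of whether a factor binds there.

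Levels are given as RMA values, which are normalized log2 intensities, and background as the RMA value of 5.13 that 95% of 44 olfactory receptor probe sets did not exceed. A fold against a group whose arrays are all at or below background is given as "at least", against that level. A gene passed a comparison when its limma p, adjusted over all probe sets, was under 0.05, and a value after ± is the SE of a log2 fold change. All 8 fibroblast markers (among them Col1a1, Pdgfra and Vim) were above background in every group, with a mean of 11.12 to 12.63 per array. Array means were 4.18 to 4.47 for 6 endothelial, 4.43 to 4.84 for 6 macrophage and leukocyte and 4.73 to 5.15 for 6 epithelial markers, with Pecam1, Cdh5, Ptprc, Adgre1 and Krt14 at background on all arrays. Other markers of these lists went the other way: Kdr, Csf1r, Epcam, Krt5 and Krt8 were above background on all arrays. Fcer1g was above it on all except TKO replicate 2, and Cd68 on all TKO and TKO-Ras arrays. Smooth muscle and pericyte markers were not at background as a list (6.21 to 8.11 for 7 markers, with Acta2 at 11.18 to 14.40), and of 7 cartilage markers (5.03 to 5.68) Sox9 and Col2a1 reached 9.16 and 8.58. The deleted genes followed the labels except on the arrays labelled Rb1KO, where Rbl2, which that label does not list as deleted, was at background (4.47, 3.80 and 4.27 against 7.54, 7.72 and 7.90 in WT, at least 6.01-fold lower, adjusted p = 1.6e-06) while Rb1 itself fell by 0.92 on the log2 scale (adjusted p = 7.9e-04). In TKO all 3 deleted genes were lower than in WT: Rbl1 was at background (at least 8.65-fold lower, adjusted p = 5.8e-06), whereas Rb1 (6.97, 7.02 and 7.43, by -1.36, adjusted p = 6.8e-05) and Rbl2 (5.37, 5.27 and 5.71, by -2.27, adjusted p = 3.6e-05) stayed above it, as did Rb1 in TKO-Ras (7.45 to 7.66). Whether these probe sets lie within the deleted parts is not given in the sources used here. Rb1KO stands below for the arrays with that label, so each direction given for it is that of arrays low in both Rb1 and Rbl2.

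WT replicate 3 stood apart. Its values differed from both other WT arrays by 2-fold or more for 17 of the 42 genes, 13 above and 4 below, and its mean correlation with its own group was 0.9736 over all probe sets, against 0.9820 or more on every other array. The Y-linked gene Eif2s3y was at 8.63 and 9.12 on WT replicates 1 and 2 and at 4.91 on replicate 3, while Xist was at 10.73, 8.79 and 11.57. Both genes were at or below background on the 9 other arrays. Every WT array thus differed from all mutant arrays in Xist, and in comparisons with WT genotype cannot be told apart from the sex or origin of the cells. In TKO, replicate 1 lay 2-fold or more below both other TKO arrays for 7 of the 42 genes, and WT replicate 2 did so in its group for 6. These counts per array were not made over all genes, so they do not show whether matrix genes differed more than others. Results that rest on these arrays are given with and without them.

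**Figure D1:**
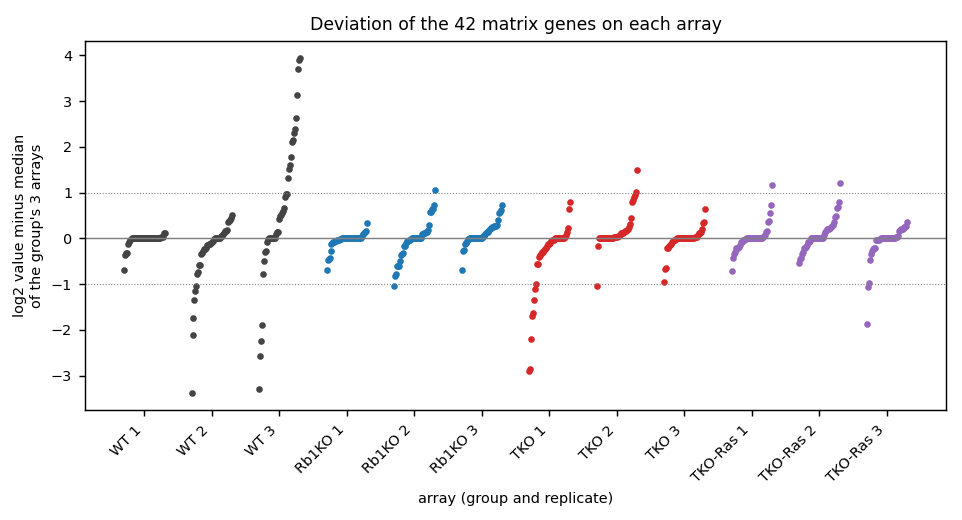
Deviation of each of the 42 matrix genes from the median of its group's 3 arrays (log2, vertical axis), by array and sorted within each array, with dotted lines at 2-fold. WT replicate 3 has 13 genes over 2-fold above and 4 below both other WT arrays, and TKO replicate 1 has 7 below.

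In the comparison of TKO with WT, matrix genes were more often lower than higher. Of the 42 genes, 14 (33.3%) were lower and 5 (11.9%) higher in TKO, and 23 did not pass. Over all 18193 genes read the same way, 9.9% were lower and 13.6% higher. The median log2 fold change was -0.61 over the 42 genes and 0.05 over all genes. In bulk RNA, fewer cells of a type and less RNA per cell cannot be told apart.

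The arrays labelled Rb1KO gave a similar balance against WT, with 18 of the 42 genes (42.9%) lower and 2 (4.76%) higher, beside 12.3% and 15.6% of all genes. Here the median was -0.997 over the 42 genes and 0.08 over all genes. This comparison uses the same 3 WT arrays as the comparison of TKO with WT, so the values of both are given side by side and their likeness was not tested.

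Set against Rb1KO directly, TKO MEFs were higher for 8 of the 42 genes (19%) and lower for 5 (11.9%), beside 5.92% and 3.63% of all genes. The median was 0.31 over the matrix genes and -0.03 over all genes. Adding mutated Ras to the TKO genotype went with lower levels: 12 of the 42 genes (28.6%) were lower and 2 (4.76%) higher in TKO-Ras than in TKO, beside 4.17% and 3.19% of all genes, with medians of -0.76 and 0.04. With genes at background in 1 group set to their bound, the median of the 42 was -0.61 there and 0.30 for TKO against Rb1KO.

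The count of higher genes in TKO depended on WT replicate 3, and was 8 without that array and 3 without WT replicate 1, WT replicate 2, TKO replicate 2 or TKO replicate 3. For Rb1KO against WT, leaving out WT replicate 1 or 2 or any single Rb1KO array left 1 gene higher. For TKO-Ras against TKO, the lower genes were 7 without TKO replicate 2 and 9 to 13 without any other array. The 2 higher genes became 1 without TKO replicate 1, TKO replicate 3 or TKO-Ras replicate 1, and 0 without TKO-Ras replicate 3.

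**Figure D2:**
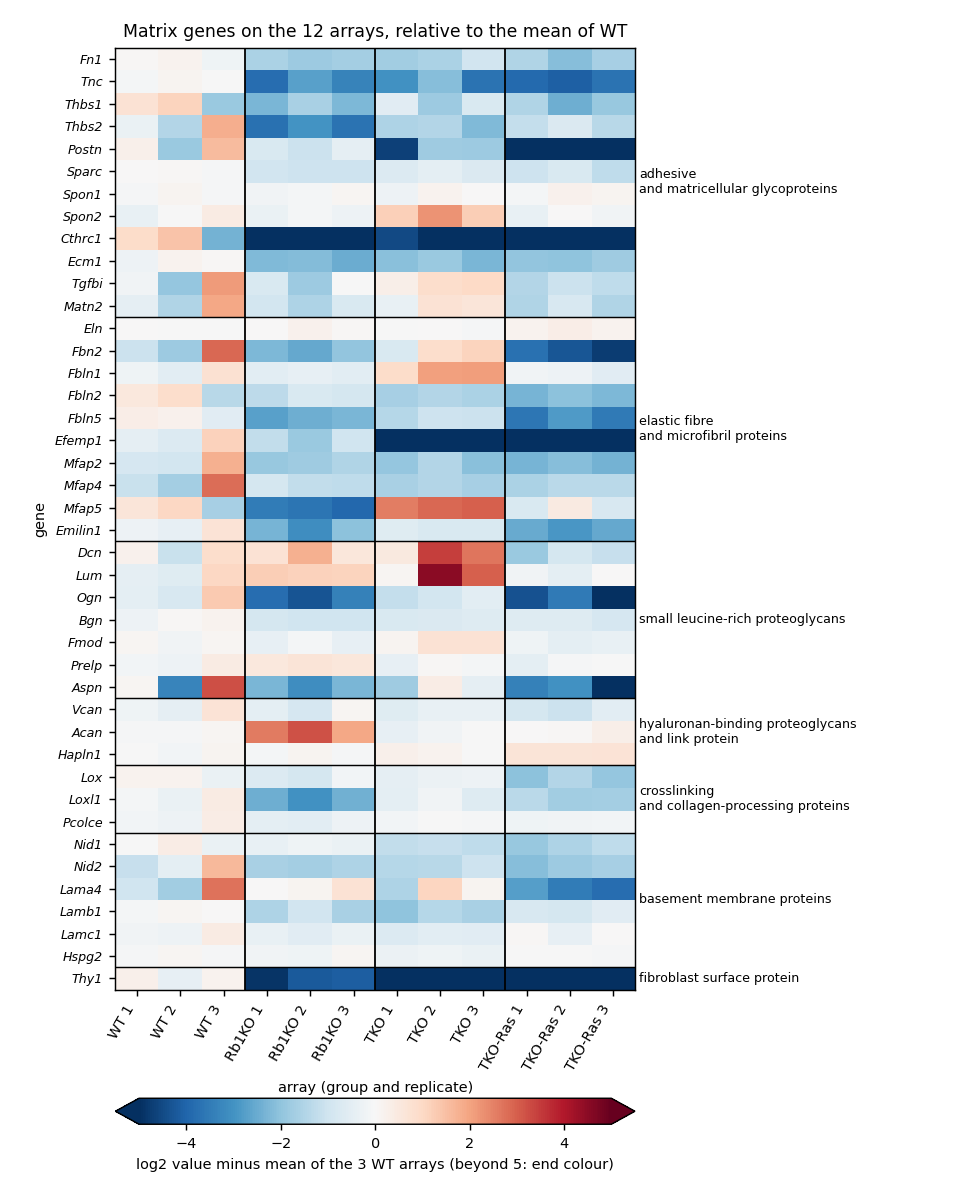
RMA value (log2) of the 42 matrix genes (rows, by class) on the 12 arrays (columns), minus the mean of the 3 WT arrays, with blue for lower and red for higher and values beyond 5 drawn in the end colour. Thy1, Cthrc1, Tnc and Ecm1 are blue in all 3 mutant groups, Efemp1 is at the blue end of the scale in TKO and TKO-Ras, and Mfap5 is blue in Rb1KO and red in TKO.

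Across arrays the mean RMA value of the 42 genes was 9.67, 9.40 and 10.35 in WT, 8.45, 8.48 and 8.60 in Rb1KO, 8.64, 9.22 and 9.02 in TKO and 7.85, 7.92 and 7.74 in TKO-Ras. The WT arrays were the 3 highest and the TKO-Ras arrays the 3 lowest, and Rb1KO and TKO did not overlap. In all, 28 of the genes were above background on every array, and 2, Spon1 and Hapln1, exceeded it on none.

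**Figure D3:**
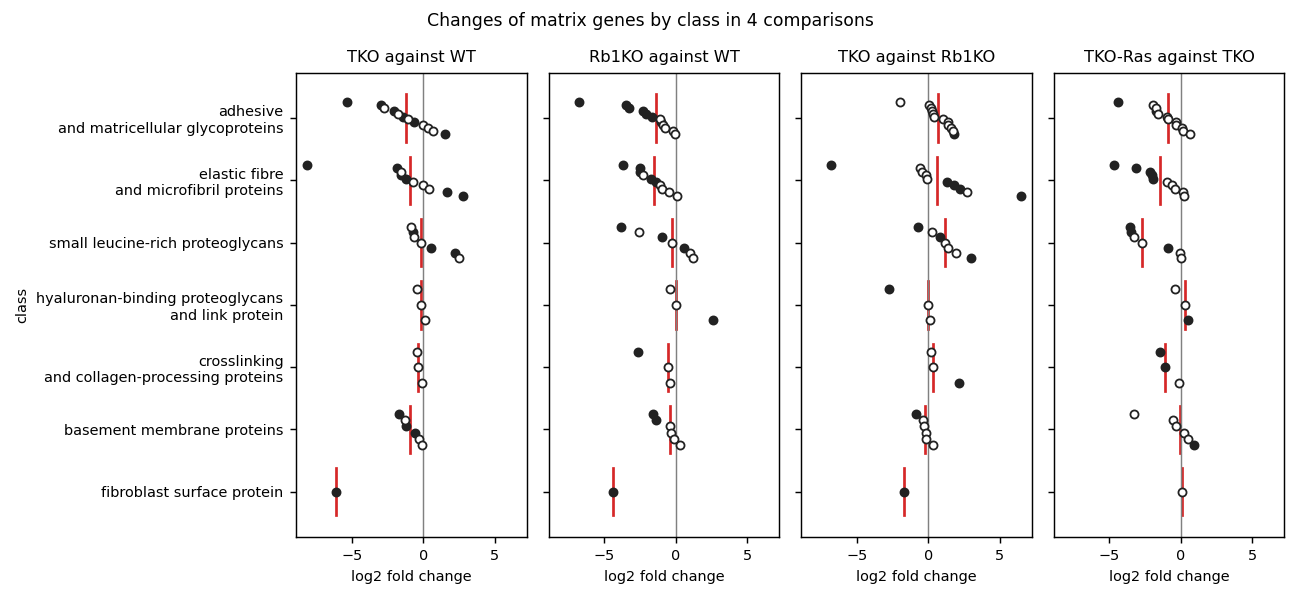
Log2 fold change of each matrix gene (points) by class in 4 comparisons, with filled points for genes past an adjusted p of 0.05, open points for those that were not, and a red line at the class median. Adhesive glycoproteins and elastic fibre proteins have medians below 0 against WT in both mutant groups, and small leucine-rich proteoglycans have a median of -2.74 in TKO-Ras against TKO (-1.92 with Lum at its bound).

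Among the 12 adhesive and matricellular glycoproteins, 5 were lower and 1 higher in TKO than in WT, and 7 were lower and none higher in Rb1KO than in WT. Fibronectin, tenascin C, Ecm1, Sparc and Cthrc1 were lower in both. Between TKO and Rb1KO only Spon2 passed, and in TKO-Ras against TKO 2 genes were lower, Postn and Spon2. The lower shares in the 4 comparisons were 41.7%, 58.3%, 0% and 16.7%, beside 9.9%, 12.3%, 3.63% and 4.17% of all genes. The higher shares were 8.33%, 0%, 8.33% and 0%, beside 13.6%, 15.6%, 5.92% and 3.19%. The higher share in TKO against Rb1KO was near the background.

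Fn1 encodes fibronectin, the ligand of integrin receptors on which fibroblasts spread. Its RMA values were 14.49, 14.59 and 14.21 in WT, 12.86, 12.61 and 12.72 in Rb1KO, 12.69, 12.85 and 13.49 in TKO and 12.91, 12.31 and 12.76 in TKO-Ras. All 9 mutant arrays lay below all WT arrays. The level was 2.68-fold lower in TKO (log2 fold change -1.42 ± 0.21 SE, adjusted p = 7.1e-04) and 3.25-fold lower in Rb1KO (-1.70 ± 0.21, adjusted p = 1.7e-04), with the 3 mutant groups overlapping each other. The other Fn1 probe set was lower too, by -3.18 in TKO (adjusted p = 5.2e-04) and -3.29 in Rb1KO (adjusted p = 3.3e-04).

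Tnc, tenascin C, is a large hexameric glycoprotein of developing and healing tissue that counters adhesion to fibronectin. On the arrays it read 12.17, 12.44 and 12.25 in WT, 8.46, 9.57 and 8.93 in Rb1KO, 9.25, 10.15 and 8.61 in TKO and 8.39, 8.19 and 8.59 in TKO-Ras. The highest mutant array, at 10.15, lay well under the lowest WT array, at 12.17. Tenascin C was 7.74-fold lower in TKO (-2.95 ± 0.35, adjusted p = 1.4e-04) and 9.86-fold lower in Rb1KO (-3.30 ± 0.35, adjusted p = 5.4e-05), and the difference between TKO-Ras and TKO did not pass (-0.94 ± 0.35, adjusted p = 0.16).

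Ecm1, a secreted protein of skin and connective tissue that binds perlecan and fibulins, was lower in both deletion genotypes with little spread between arrays. Its levels were 10.99, 11.41 and 11.30 in WT, 9.04, 9.05 and 8.77 in Rb1KO, 9.15, 9.39 and 8.93 in TKO and 9.28, 9.21 and 9.47 in TKO-Ras. Within each group the 3 arrays lay within 0.5 of each other, and the mutant groups lay about 2 below WT on the log2 scale. The change was -2.08 ± 0.15 in TKO (adjusted p = 5.0e-06) and -2.29 ± 0.15 in Rb1KO (adjusted p = 2.4e-06).

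Cthrc1, a secreted protein of injured vessels and activated fibroblasts that limits collagen deposition, had the largest change of the class. It was at 11.73, 12.24 and 8.45 in WT, at 3.72, 4.14 and 4.33 in Rb1KO, at 6.30, 5.51 and 4.55 in TKO and at 3.62, 3.91 and 3.58 in TKO-Ras. WT replicate 3 was lower than the other WT arrays but above all 9 mutant arrays, and the Rb1KO and TKO-Ras arrays were all at background. The level in Rb1KO was at least 51.0-fold lower than in WT (adjusted p = 1.1e-04), and in TKO it was -5.36 ± 0.78 on the log2 scale (adjusted p = 6.4e-04). Leaving out WT replicate 3 gave -6.53 in TKO and at least 116-fold lower in Rb1KO, and leaving out WT replicate 2 gave -4.64 and at least 31.1-fold, all still past the threshold.

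Sparc, a collagen-binding matricellular protein, read 14.17, 14.23 and 14.09 in WT, 13.20, 13.11 and 13.14 in Rb1KO, 13.47, 13.67 and 13.44 in TKO and 13.14, 13.39 and 12.91 in TKO-Ras. The differences were small beside those above, -0.64 in TKO (adjusted p = 0.0033) and -1.02 in Rb1KO (adjusted p = 1.3e-04), yet no mutant array reached the WT arrays. Another Sparc probe set was lower too, by -0.79 in TKO (adjusted p = 0.0067) and -1.37 in Rb1KO (adjusted p = 1.6e-04). The remaining one, with a WT mean of 6.52, did not show it (0.013 in TKO, adjusted p = 0.95, and 0.020 in Rb1KO, adjusted p = 0.92). On the first probe set, TKO-Ras against TKO was -0.38 (adjusted p = 0.11), and passed when TKO-Ras replicate 2 was left out (-0.50, adjusted p = 0.031).

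The thrombospondins Thbs1 and Thbs2 are secreted trimers that restrain vessel growth, and Thbs1 activates latent TGF-beta. Thbs1 was at 13.82, 14.20 and 11.25 in WT, 10.79, 11.48 and 10.83 in Rb1KO, 12.53, 11.27 and 12.31 in TKO and 11.58, 10.66 and 11.19 in TKO-Ras, so WT replicate 3 lay within the mutant range. Its difference was -2.05 in Rb1KO (adjusted p = 0.038) and -1.05 in TKO (adjusted p = 0.3). Without WT replicate 3 both passed, at -2.97 (adjusted p = 1.3e-04) and -1.97 (adjusted p = 0.0026), whereas the Rb1KO call was lost without WT replicate 1 or 2 or any single Rb1KO array (adjusted p = 0.059 to 0.14).

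Thbs2 went the other way on WT replicate 3, with 9.56, 8.42 and 11.70 in WT against 6.18, 6.91 and 6.19 in Rb1KO, 8.36, 8.41 and 7.69 in TKO and 8.70, 9.18 and 8.50 in TKO-Ras. The Rb1KO arrays lay below all 9 others. Thbs2 was 11.1-fold lower in Rb1KO (-3.47 ± 0.62, adjusted p = 0.002), and -2.56 without WT replicate 3 and -4.21 without WT replicate 2. In TKO the difference of -1.74 on this probe set did not pass (adjusted p = 0.076), except when WT replicate 2 was left out (-2.48, adjusted p = 0.0079). Another Thbs2 probe set passed in TKO with all arrays (-1.67, adjusted p = 0.04), and a further one did not (-1.53, adjusted p = 0.077).

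Postn, periostin, promotes collagen fibril assembly and marks activated fibroblasts. Its values spread widely in WT (13.19, 11.08 and 14.50) and in TKO (8.26, 11.13 and 11.11), and were 12.18, 11.85 and 12.47 in Rb1KO and 6.90, 5.73 and 4.76 in TKO-Ras. The TKO-Ras arrays lay below all others. The fall from TKO to TKO-Ras was 20.7-fold (-4.37 ± 0.91, adjusted p = 0.017), and did not pass when TKO replicate 2, TKO replicate 3 or TKO-Ras replicate 3 was left out (adjusted p = 0.072 to 0.078). Without TKO replicate 1 it was -5.32 (adjusted p = 0.0057). TKO against WT gave -2.76 (adjusted p = 0.055), and -3.68 without WT replicate 2 (adjusted p = 0.013).

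Spon2, a secreted matrix protein that binds integrins of leukocytes, was the only adhesive glycoprotein higher in TKO. It read 6.04, 6.40 and 6.82 in WT, 6.10, 6.32 and 6.17 in Rb1KO, 7.61, 8.65 and 7.64 in TKO and 6.04, 6.45 and 6.25 in TKO-Ras. The TKO arrays were above all 9 others. The level was 2.93-fold higher than in WT (adjusted p = 0.0018), 3.42-fold higher than in Rb1KO (adjusted p = 0.0019) and 3.30-fold lower in TKO-Ras than in TKO (adjusted p = 0.0034). Another Spon2 probe set, near background, did not show it (0.19 in TKO against WT).

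The other members of the class passed in no comparison. Tgfbi and Matn2, a TGF-beta-induced adhesion protein and a filament-forming matrilin, were high on WT replicate 3 (12.90 and 11.10) beside 10.60 and 8.86, and 8.72 and 7.67, on the other WT arrays. Without that array Tgfbi was 1.77 higher (adjusted p = 0.031) and Matn2 1.28 higher (adjusted p = 0.038) in TKO than in WT. Spon1 was at background on all 12 arrays.

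**Figure D4:**
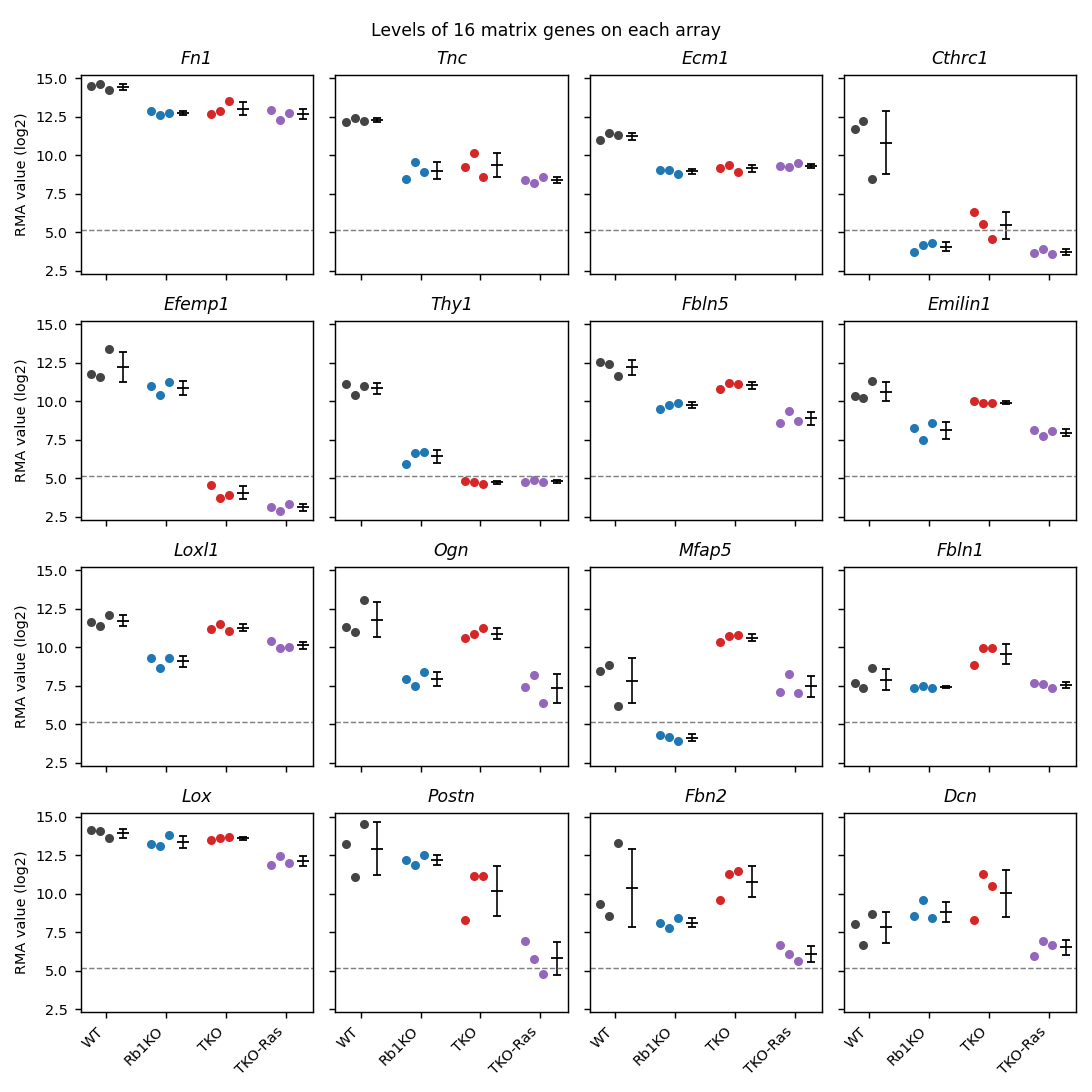
RMA value (log2) of 16 matrix genes on each of the 12 arrays (points, by group), with the group mean and SD beside them and a dashed line at the background of 5.13. Fn1, Tnc, Ecm1 and Thy1 are lower in every mutant array than in WT, Mfap5 and Fbln1 peak in TKO, and Lox, Postn and Fbn2 are lowest in TKO-Ras.

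The 10 measured elastic fibre and microfibril proteins moved in both directions. In TKO 4 were lower and 2 higher than in WT, in Rb1KO 5 were lower and none higher, in TKO against Rb1KO 4 were higher and 1 lower, and in TKO-Ras against TKO 5 were lower and none higher. The lower shares were 40%, 50%, 10% and 50%, beside 9.9%, 12.3%, 3.63% and 4.17% of all genes. The higher shares were 20%, 0%, 40% and 0%, beside 13.6%, 15.6%, 5.92% and 3.19%. The higher share in TKO against WT was near the background. Elastin itself passed in no comparison, and on the probe set used here its levels near background (5.97, 5.94 and 5.92 in WT, 5.98, 6.15 and 6.02 in Rb1KO, 5.91, 5.95 and 5.88 in TKO, and 6.11, 6.27 and 6.11 in TKO-Ras) differed by 0.25 or less between any of the groups compared. The other Eln probe set was -0.39 in TKO against WT and did not pass (adjusted p = 0.12). Among the alternatives, only ANOVA contrasts without moderation called Eln, higher in TKO-Ras than in TKO (0.25).

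Efemp1, fibulin 3, a short fibulin of elastic tissue and basement membranes, had the largest change of all 42 genes. Its RMA values were 11.77, 11.55 and 13.38 in WT, 10.99, 10.38 and 11.23 in Rb1KO, 4.56, 3.75 and 3.91 in TKO and 3.11, 2.90 and 3.31 in TKO-Ras. All 6 TKO and TKO-Ras arrays were at background, and the Rb1KO arrays were near WT. Efemp1 was at least 137-fold lower in TKO than in WT (adjusted p = 4.2e-07) and at least 53.1-fold lower than in Rb1KO (adjusted p = 2.5e-06). Rb1KO was lower than WT by a smaller step (-1.37 ± 0.42, adjusted p = 0.035), which did not pass without WT replicate 3 (-0.79, adjusted p = 0.052), Rb1KO replicate 1 (-1.43, adjusted p = 0.071) or Rb1KO replicate 2 (-1.12, adjusted p = 0.13).

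Mfap5, a microfibril-associated protein that binds fibrillin, went in opposite directions in the 2 deletion genotypes. It was at 8.44, 8.89 and 6.19 in WT, 4.33, 4.17 and 3.91 in Rb1KO, 10.38, 10.71 and 10.83 in TKO and 7.08, 8.28 and 7.04 in TKO-Ras. No Rb1KO array was above background, and the TKO arrays were above all others. In Rb1KO Mfap5 was at least 6.53-fold lower than in WT (adjusted p = 7.0e-04) and in TKO 6.96-fold higher (2.80 ± 0.57, adjusted p = 0.005). Without WT replicate 3 it was at least 11.6-fold lower in Rb1KO and 1.97 higher on the log2 scale in TKO, both past the threshold, and without WT replicate 2 the bound in Rb1KO was 4.54-fold. TKO exceeded Rb1KO by at least 45.5-fold (adjusted p = 4.0e-05), and TKO-Ras was 9.01-fold lower than TKO (-3.17 ± 0.57, adjusted p = 0.0076). The other Mfap5 probe set passed in the same direction in all 4 comparisons.

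Fbln1, fibulin 1, which joins elastic fibres and fibronectin, was also highest in TKO. Its values were 7.68, 7.37 and 8.66 in WT, 7.37, 7.48 and 7.36 in Rb1KO, 8.83, 9.94 and 9.98 in TKO and 7.71, 7.63 and 7.35 in TKO-Ras. The TKO arrays were above all others, though TKO replicate 1 came within 0.2 of WT replicate 3. Fbln1 was 3.21-fold higher in TKO than in WT (1.68 ± 0.34, adjusted p = 0.0046), 4.52-fold higher than in Rb1KO (adjusted p = 0.0022) and 4.05-fold lower in TKO-Ras than in TKO (adjusted p = 0.0052). Of the other Fbln1 probe sets, 1 passed against WT and Rb1KO but not in TKO-Ras against TKO (-1.33, adjusted p = 0.056), and the remaining one passed in none.

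Fbln5, fibulin 5, which tethers elastin to microfibrils and integrins, fell in steps. It read 12.55, 12.44 and 11.66 in WT, 10.78, 11.17 and 11.14 in TKO, 9.52, 9.79 and 9.92 in Rb1KO and 8.62, 9.37 and 8.70 in TKO-Ras, with no overlap between any 2 groups. TKO was -1.19 ± 0.25 below WT (adjusted p = 0.0067), Rb1KO -2.47 ± 0.25 (adjusted p = 4.6e-05), TKO 1.28 above Rb1KO (adjusted p = 0.0098) and TKO-Ras -2.13 below TKO (adjusted p = 6.1e-04). Another Fbln5 probe set, near background, passed in none of these.

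Emilin1, an elastin-associated glycoprotein that restrains TGF-beta processing, had a like order. It was at 10.35, 10.21 and 11.31 in WT, 10.01, 9.87 and 9.87 in TKO, 8.29, 7.51 and 8.57 in Rb1KO and 8.12, 7.72 and 8.07 in TKO-Ras. Rb1KO and TKO-Ras overlapped each other and lay below every WT and TKO array. The level in Rb1KO was 5.67-fold lower than in WT (-2.50 ± 0.30, adjusted p = 1.3e-04), TKO was 3.46-fold above Rb1KO (adjusted p = 0.0037), TKO-Ras was 3.85-fold below TKO (adjusted p = 0.0034), and TKO against WT did not pass (-0.71, adjusted p = 0.13).

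Fbn2, fibrillin 2, the backbone of microfibrils in the embryo, was dominated by WT replicate 3. It read 9.30, 8.53 and 13.25 in WT, 8.11, 7.79 and 8.39 in Rb1KO, 9.61, 11.25 and 11.46 in TKO and 6.63, 6.07 and 5.60 in TKO-Ras. TKO-Ras lay below every other array. The fall from TKO was 25.5-fold (-4.67 ± 0.97, adjusted p = 0.016), and did not pass without TKO replicate 2, TKO replicate 3 or TKO-Ras replicate 3 (adjusted p = 0.067 to 0.07). TKO against WT was 0.41 with all arrays (adjusted p = 0.83) and 1.86 without WT replicate 3 (adjusted p = 0.018). Rb1KO against WT was -2.27 (adjusted p = 0.12), and -3.18 without WT replicate 2 (adjusted p = 0.035).

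Fbln2 and Mfap2, fibulin 2 and a fibrillin-binding protein, were lower in TKO by amounts that depended on WT replicate 3. Fbln2 read 13.48, 13.83 and 11.58 in WT, 11.65, 12.21 and 12.09 in Rb1KO and 11.32, 11.49 and 11.38 in TKO. Its change in TKO was -1.57 (adjusted p = 0.027), -2.26 without WT replicate 3 (adjusted p = 5.3e-06) and not past the threshold without any single one of the other WT and TKO arrays (adjusted p = 0.062 to 0.1). In Rb1KO Fbln2 passed only without WT replicate 3 (-1.67, adjusted p = 4.0e-05).

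Mfap2 read 9.08, 9.02 and 11.70 in WT, 8.05, 8.16 and 8.41 in Rb1KO and 8.01, 8.45 and 7.85 in TKO, below WT on every array. Its changes were -1.83 in TKO (adjusted p = 0.037) and -1.73 in Rb1KO (adjusted p = 0.042), and they were -0.95 and -0.84 without WT replicate 3, both past the threshold. Leaving out any single TKO array (adjusted p = 0.064 to 0.1) or Rb1KO array (adjusted p = 0.079 to 0.11) lost the call. Mfap4, a microfibril-associated protein of elastic tissue, was above 5.5 on WT replicate 3 alone (8.99) and passed in no comparison.

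Of the 7 small leucine-rich proteoglycans, 2 were higher and 1 lower in TKO than in WT, 1 higher and 2 lower in Rb1KO than in WT, 2 higher and 1 lower in TKO than in Rb1KO, and 3 lower and none higher in TKO-Ras than in TKO. The lower shares were 14.3%, 28.6%, 14.3% and 42.9%, beside 9.9%, 12.3%, 3.63% and 4.17% of all genes. The higher shares were 28.6%, 14.3%, 28.6% and 0%, beside 13.6%, 15.6%, 5.92% and 3.19%. The lower share in TKO against WT and the higher share in Rb1KO against WT were near the background. The class median was -0.15, -0.29, 1.19 and -2.74 in these comparisons, the last being -1.92 with Lum at its bound. In RefSeq, Dcn and Lum are neighbours on chromosome 10, Fmod and Prelp are neighbours on chromosome 1, and Aspn and Ogn lie on chromosome 13 with 1 protein-coding gene, Omd, between them.

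Dcn, decorin, binds collagen fibrils, TGF-beta and growth factor receptors. It read 8.02, 6.68 and 8.69 in WT, 8.51, 9.57 and 8.38 in Rb1KO, 8.27, 11.27 and 10.47 in TKO and 5.94, 6.92 and 6.66 in TKO-Ras. TKO replicate 1 lay within the WT range and the other TKO arrays above it. The difference from WT was 2.20 ± 0.70 (adjusted p = 0.049), it was 3.07 without TKO replicate 1 (adjusted p = 0.0051), and it did not pass without WT replicate 1 or 2 or TKO replicate 2 or 3 (adjusted p = 0.089 to 0.18). TKO-Ras was 11.3-fold below TKO (-3.49 ± 0.70, adjusted p = 0.014), -4.36 without TKO replicate 1, and not past the threshold without TKO replicate 2 or 3 or TKO-Ras replicate 1 (adjusted p = 0.06 to 0.063).

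Lum, lumican, the gene beside Dcn and a regulator of fibril spacing, showed the same spread. It was at 4.07, 3.93 and 5.58 in WT, 5.77, 5.67 and 5.65 in Rb1KO, 4.63, 9.02 and 7.53 in TKO and 4.35, 4.05 and 4.55 in TKO-Ras. TKO replicate 1 was at background and the other TKO arrays were the highest of the 12. None of the comparisons passed with all arrays: TKO against WT was 2.53 (adjusted p = 0.056), and TKO-Ras, at background on all arrays, was at least 3.80-fold below TKO (adjusted p = 0.089). Without TKO replicate 1 they were 3.75 (adjusted p = 7.7e-04) and at least 8.83-fold (adjusted p = 0.0016), and TKO against Rb1KO was 2.58 (adjusted p = 0.013). Without WT replicate 3 the WT arrays were at background too, and TKO was at least 3.80-fold above them (adjusted p = 0.028).

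Ogn, osteoglycin or mimecan, a proteoglycan of bone and connective tissue, was low in Rb1KO and in TKO-Ras. It read 11.30, 10.97 and 13.08 in WT, 7.98, 7.48 and 8.39 in Rb1KO, 10.58, 10.88 and 11.24 in TKO and 7.44, 8.23 and 6.38 in TKO-Ras. The WT and TKO arrays overlapped and lay above all 6 others. Against WT the level in Rb1KO was 14.3-fold lower (-3.83 ± 0.55, adjusted p = 4.3e-04), and -3.18 without WT replicate 3. TKO was 7.75-fold above Rb1KO (adjusted p = 0.0066), and TKO-Ras 11.7-fold below TKO (adjusted p = 0.0033).

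Bgn, biglycan, the closest relative of decorin, differed little in size but clearly from its replicate spread. It was at 13.97, 14.28 and 14.37 in WT, 13.34, 13.21 and 13.23 in Rb1KO, 13.46, 13.50 and 13.58 in TKO and 13.58, 13.57 and 13.37 in TKO-Ras. Its change was -0.70 in TKO (adjusted p = 0.0013) and -0.95 in Rb1KO (adjusted p = 1.3e-04), and all 3 Bgn probe sets were called lower in both comparisons. TKO-Ras and TKO had the same mean of 13.51.

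Fmod, fibromodulin, which guides early fibril growth, read 5.54, 5.25 and 5.52 in WT, 5.03, 5.34 and 5.04 in Rb1KO, 5.57, 6.14 and 6.16 in TKO and 5.23, 4.93 and 5.07 in TKO-Ras. On this probe set TKO was 0.52 above WT (adjusted p = 0.048), 0.82 above Rb1KO (adjusted p = 0.012) and 0.88 above TKO-Ras (adjusted p = 0.01), and 5 of its 6 probe sets passed in the same direction in each. On another of them TKO was 1.80 above WT (adjusted p = 0.0059), 2.53 above Rb1KO (adjusted p = 0.0018) and at least 3.76-fold above TKO-Ras (adjusted p = 6.6e-04), so the size of the change depends on the probe set. On the first probe set, the first call was lost without any single WT array or without TKO replicate 2 or 3 (adjusted p = 0.053 to 0.17). The second was lost without Rb1KO replicate 1 or 3 or TKO replicate 2 or 3 (adjusted p = 0.052 to 0.057), and the last without TKO replicate 2 (adjusted p = 0.053).

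Prelp, its neighbour, which anchors basement membrane to collagen, read 5.32, 5.20 and 5.87 in WT, 5.98, 6.12 and 6.02 in Rb1KO, 5.07, 5.52 and 5.36 in TKO and 4.98, 5.40 and 5.46 in TKO-Ras. The Rb1KO arrays were the 3 highest by a small margin. Prelp was 0.58 higher in Rb1KO than in WT (adjusted p = 0.048), a call lost without WT replicate 1 or 2 or any single Rb1KO array (adjusted p = 0.087 to 0.16). TKO was -0.73 below Rb1KO (adjusted p = 0.04), a call lost without any single array of the 6 (adjusted p = 0.056 to 0.13). The other Prelp probe set passed in none of the comparisons.

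Aspn, asporin, which competes with decorin for collagen, had the widest WT spread of all, 9.39, 6.01 and 12.52, and passed in no comparison with all arrays. Without WT replicate 2, Rb1KO was -4.20 below WT (adjusted p = 0.0093).

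In the class of hyaluronan-binding genes, Vcan (versican, the main large proteoglycan of embryonic mesenchyme) passed in no comparison on any of its 8 probe sets, with 9.05 to 10.82 over the 12 arrays. Acan, aggrecan, the large proteoglycan of cartilage, was above background in Rb1KO alone. It read 7.35, 7.92 and 6.65 there, against 4.69, 4.67 and 4.84 in WT, 4.34, 4.57 and 4.72 in TKO and 4.75, 4.78 and 5.03 in TKO-Ras. Rb1KO was at least 4.51-fold higher than WT (adjusted p = 3.0e-05) and than TKO (adjusted p = 4.7e-05). Of the 7 cartilage markers, Sox9 was higher in Rb1KO than in WT (1.32, adjusted p = 0.021), Col2a1 was lower (-3.11, adjusted p = 2.0e-05) and the other 5 did not pass. Each call is 14.3% of the list, near the 15.6% of all genes higher and 12.3% lower. The mean of the list was 5.19 to 5.31 per array in Rb1KO, 5.54 to 5.68 in WT and 5.03 to 5.36 in TKO, and the part of any cartilage-like cells in the Acan level was not tested. Hapln1, the link protein, was called higher in TKO-Ras than in TKO (adjusted p = 0.016), but both groups were at background (3.68, 3.70 and 3.72 against 3.29, 3.22 and 3.01) and the call was lost without TKO replicate 3, TKO-Ras replicate 1 or TKO-Ras replicate 3 (adjusted p = 0.051 to 0.066).

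The crosslinking enzymes differed from each other. Lox, lysyl oxidase, read 14.10, 14.08 and 13.58 in WT, 13.23, 13.06 and 13.80 in Rb1KO, 13.48, 13.61 and 13.65 in TKO and 11.85, 12.45 and 11.99 in TKO-Ras. Only the TKO-Ras arrays stood below the rest. Lox was 2.80-fold lower in TKO-Ras than in TKO (-1.48 ± 0.21, adjusted p = 0.0021), while Rb1KO against WT was -0.55 (adjusted p = 0.09), and passed without WT replicate 3 (-0.72, adjusted p = 0.03) or Rb1KO replicate 3 (-0.77, adjusted p = 0.024). Another Lox probe set passed in Rb1KO against WT with all arrays (-0.59, adjusted p = 0.042).

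Loxl1, the family member that crosslinks elastin on fibulin 5 scaffolds, was instead lowest in Rb1KO. It was at 11.64, 11.41 and 12.12 in WT, 9.29, 8.69 and 9.34 in Rb1KO, 11.22, 11.54 and 11.08 in TKO and 10.39, 9.99 and 10.04 in TKO-Ras. Rb1KO and TKO-Ras overlapped with no other group. The change in Rb1KO was 6.13-fold down against WT (-2.62 ± 0.22, adjusted p = 1.3e-05), TKO was 4.51-fold above Rb1KO (adjusted p = 1.2e-04), and TKO-Ras was 2.21-fold below TKO (adjusted p = 0.011, and 0.056 without TKO replicate 2). Pcolce, which speeds the trimming of procollagen, lay between 13.05 and 13.94 on all arrays and passed in no comparison with all arrays. Without WT replicate 2 it was -0.54 lower in Rb1KO than in WT (adjusted p = 0.028).

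Among the 6 basement membrane proteins, 3 were lower in TKO than in WT and 2 in Rb1KO than in WT, and none was higher in either. The lower shares were 50% and 33.3%, beside 9.9% and 12.3% of all genes, of which 13.6% and 15.6% were higher. Lamb1, the laminin beta 1 chain, read 11.74, 11.93 and 11.87 in WT, 10.30, 10.88 and 10.21 in Rb1KO, 9.83, 10.42 and 10.23 in TKO and 11.04, 10.96 and 11.28 in TKO-Ras. TKO-Ras lay between WT and the other groups without overlap. The change was -1.68 ± 0.19 in TKO (adjusted p = 1.1e-04) and -1.39 ± 0.19 in Rb1KO (adjusted p = 3.4e-04). TKO-Ras was 0.93 above TKO (adjusted p = 0.016), a call lost without TKO replicate 1 (0.77, adjusted p = 0.053) or TKO-Ras replicate 3 (0.84, adjusted p = 0.069).

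Nid1, nidogen 1, which bridges laminin and collagen IV, was lower in TKO and not in Rb1KO. It read 12.40, 12.80 and 12.10 in WT, 12.05, 12.20 and 12.10 in Rb1KO, 11.19, 11.30 and 11.17 in TKO and 10.54, 10.89 and 11.16 in TKO-Ras. The WT and Rb1KO arrays overlapped, and all 6 TKO and TKO-Ras arrays were lower than they were. Nid1 was -1.21 ± 0.18 against WT (adjusted p = 7.1e-04) and -0.90 ± 0.18 against Rb1KO (adjusted p = 0.011).

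Nid2, its relative, was at 7.99, 8.68 and 10.78 in WT, 7.51, 7.46 and 7.61 in Rb1KO and 7.73, 7.76 and 8.10 in TKO. It was -1.62 in Rb1KO (adjusted p = 0.043), -0.81 without WT replicate 3 (adjusted p = 0.012), and lost its call without any single Rb1KO array (adjusted p = 0.092 to 0.11). In TKO the value of -1.28 did not pass (adjusted p = 0.11), except without WT replicate 1 (-1.86, adjusted p = 0.018).

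Lamc1, the laminin gamma 1 chain, read 8.97, 8.89 and 9.56 in WT, 8.75, 8.58 and 8.80 in Rb1KO, 8.45, 8.60 and 8.57 in TKO and 9.19, 8.73 and 9.15 in TKO-Ras, all in a narrow band. It was -0.60 in TKO against WT (adjusted p = 0.034), a call lost without WT replicate 3 (-0.39, adjusted p = 0.081) or any single TKO array (adjusted p = 0.066 to 0.11). Rb1KO against WT did not pass (-0.43, adjusted p = 0.11). The other Lamc1 probe set was lower in both, by -0.83 in TKO (adjusted p = 0.011) and -0.84 in Rb1KO (adjusted p = 0.0083).

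Hspg2, perlecan, and Lama4, a laminin chain of vessels and muscle, passed in no comparison with all arrays on the probe sets used here. The 2 Hspg2 probe sets disagreed. Against WT, one was -1.75 in TKO (adjusted p = 0.0015) and -1.48 in Rb1KO (adjusted p = 0.0036). The one used here was -0.28 in TKO (adjusted p = 0.089) and -0.09 in Rb1KO (adjusted p = 0.58). Lama4 ran from 6.40 to 10.83 in WT, highest on WT replicate 3, and from 4.30 to 5.37 in TKO-Ras, which lay below TKO (6.57, 9.21 and 8.26) on every array at an adjusted p of 0.081. With WT replicate 3 and TKO replicate 1 left out together, Lama4 passed in Rb1KO against WT (1.64, adjusted p = 0.0095) and in TKO against WT (1.97, adjusted p = 0.0077). It then also passed in TKO-Ras against TKO (-3.97, adjusted p = 1.5e-04).

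Thy1 encodes a GPI-anchored glycoprotein of the fibroblast surface that binds integrins and is widely used to mark fibroblasts. It read 11.10, 10.41 and 10.99 in WT, 5.94, 6.62 and 6.73 in Rb1KO, 4.80, 4.76 and 4.64 in TKO and 4.77, 4.92 and 4.74 in TKO-Ras. The WT arrays stood alone, the Rb1KO arrays were above background, and all 6 TKO and TKO-Ras arrays were below it. Thy1 was 21.1-fold lower in Rb1KO than in WT (-4.40 ± 0.21, adjusted p = 2.9e-07), at least 51.9-fold lower in TKO than in WT (adjusted p = 2.2e-08) and at least 2.46-fold lower in TKO than in Rb1KO (adjusted p = 5.5e-04). The general fibroblast markers did not all follow, since Pdgfrb, Col1a1 and Col1a2 were the only 3 of 8 lower in TKO than in WT (by -1.52, -0.89 and -0.53, adjusted p = 8.2e-05, 0.0057 and 0.011). The same 3 were lower in TKO-Ras than in TKO, by -1.01, -2.45 and -1.16 (adjusted p = 0.0045, 2.4e-05 and 2.9e-04), beside the lower matrix genes there. They are 37.5% of the list, beside 9.9% of all genes lower in TKO than in WT and 4.17% lower in TKO-Ras than in TKO.

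Across the classes, 11 of the 42 genes passed in no comparison and 12 were called higher in one comparison and lower in another. Neither count was made over all genes, so it is not known whether they are unusual. Comparisons that share a group also share its arrays, so opposite calls of a gene are not independent of each other. Among the 12 with opposite calls, Ogn, Loxl1, Emilin1 and Fbln5 were called lower in Rb1KO than in WT, higher in TKO than in Rb1KO and lower in TKO-Ras than in TKO. Mfap5 had these calls too and was also higher in TKO than in WT. Fbln1, Fmod and Spon2 were higher in TKO than in WT and Rb1KO and lower in TKO-Ras than in TKO, Dcn was higher in TKO than in WT and lower in TKO-Ras than in TKO, and Acan and Prelp were higher in Rb1KO than in WT and lower in TKO than in Rb1KO. Lamb1, the last of them, was lower in both deletion genotypes than in WT and higher in TKO-Ras than in TKO. Within a comparison, no gene had probe sets called in opposite directions.

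Of 28 other matrix proteins, 7 were lower and 1 higher in TKO than in WT, 14 lower and 3 higher in Rb1KO than in WT, 2 lower and 2 higher in TKO than in Rb1KO, and 4 lower and 1 higher in TKO-Ras than in TKO. The lower shares were 25%, 50%, 7.14% and 14.3%, beside 9.9%, 12.3%, 3.63% and 4.17% of all genes, and the higher shares 3.57%, 10.7%, 7.14% and 3.57%, beside 13.6%, 15.6%, 5.92% and 3.19%, so the last pair of higher shares lay near the background. Lama2, the laminin alpha 2 chain of muscle basement membrane, read 9.84, 10.12 and 9.73 in WT, 6.31, 6.05 and 6.53 in Rb1KO and 5.79, 6.28 and 6.13 in TKO, and was 14.2-fold lower in TKO (adjusted p = 8.4e-08) and 12.1-fold lower in Rb1KO (adjusted p = 1.3e-07). Igfbp7, a secreted binder of insulin-like growth factors, was 21.2-fold lower in TKO than in WT (adjusted p = 3.2e-05) and 3.62-fold lower in Rb1KO (adjusted p = 0.0072). Ltbp2, a microfibril-bound relative of the latent TGF-beta binding proteins, was 15.0-fold lower in TKO (adjusted p = 2.0e-04) and 11.7-fold lower in Rb1KO (adjusted p = 3.1e-04). Emilin2, a relative of Emilin1, was at background in Rb1KO, at least 7.51-fold below WT (adjusted p = 2.6e-04). Pcolce2, the relative of Pcolce, went the other way, 5.06-fold higher in Rb1KO than in WT (adjusted p = 0.0046) and 5.95-fold higher in TKO-Ras than in TKO (adjusted p = 0.0098).

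The receptors that bind these proteins were read from a list of 23 genes, of which 22 were measured. In TKO against WT 9 were lower and 4 higher, in Rb1KO against WT 12 lower and 1 higher, in TKO against Rb1KO 2 lower and 6 higher, and in TKO-Ras against TKO 2 lower and 2 higher. In the same order, the lower shares were 40.9%, 54.5%, 9.09% and 9.09%, beside 9.9%, 12.3%, 3.63% and 4.17% of all genes, and the higher shares 18.2%, 4.55%, 27.3% and 9.09%, beside 13.6%, 15.6%, 5.92% and 3.19%. The higher share in TKO against WT was near the background. Itga1, a collagen and laminin receptor chain, was at background in all mutant groups (at least 7.24-fold lower than WT in TKO, adjusted p = 1.5e-04, and in Rb1KO, adjusted p = 6.8e-05). Itga8, whose integrin binds fibronectin and tenascin C, was 22.0-fold lower in TKO than in WT (adjusted p = 4.1e-05) and did not pass in Rb1KO (-0.02, adjusted p = 0.98), with 9.45, 9.86 and 7.96 in WT, 9.19, 9.24 and 8.78 in Rb1KO and 4.42, 4.35 and 5.14 in TKO. The laminin receptor chain Itga6 read 9.21, 8.63 and 8.58 in WT, 11.20, 11.65 and 11.25 in Rb1KO, 9.53, 9.52 and 8.72 in TKO and 12.51, 12.70 and 12.82 in TKO-Ras, 10.7-fold above TKO (adjusted p = 1.3e-05). Itgb8, which activates latent TGF-beta, was 4.38-fold higher in TKO than in WT (adjusted p = 1.4e-04), and the syndecan Sdc2 was 5.25-fold lower in Rb1KO than in WT (adjusted p = 1.1e-04).

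Enzymes that build the sugar chains of proteoglycans were measured for 23 of 25 listed genes. Against WT, 5 were lower and 1 higher in TKO, and 10 lower and 4 higher in Rb1KO, with medians of -0.14 and -0.24, and 2 were higher and 1 lower in TKO than in Rb1KO. The lower shares of these 3 comparisons were 21.7%, 43.5% and 4.35%, beside 9.9%, 12.3% and 3.63% of all genes. The higher shares were 4.35%, 17.4% and 8.7%, beside 13.6%, 15.6% and 5.92%, and both those for TKO against Rb1KO and the higher share in Rb1KO were near the background. Chsy3, a chondroitin synthase, was at 6.26, 6.11 and 5.80 in WT and at 2.51 to 2.80 on all 9 mutant arrays, far under background, and was at least 1.90-fold lower in TKO (adjusted p = 2.4e-08) and in Rb1KO (adjusted p = 3.3e-08). Has1, a hyaluronan synthase, was 2.83-fold higher in Rb1KO than in WT (adjusted p = 9.2e-06) and 1.94-fold higher in TKO-Ras than in TKO (adjusted p = 8.7e-04). In TKO-Ras 3 (13%) were higher and 2 (8.7%) lower than in TKO, beside 3.19% and 4.17% of all genes, the largest change being Csgalnact1, which starts chondroitin chains, at 3.75-fold higher (adjusted p = 0.003).

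Of the 7 smooth muscle and pericyte markers, 1 was lower in TKO than in WT and in Rb1KO than in WT, Cnn1, and 1 in TKO-Ras than in TKO, Acta2, while Notch3 was higher in TKO than in Rb1KO (1.18, adjusted p = 0.025). A single gene is 14.3% of this list, beside 9.9%, 12.3% and 4.17% of all genes lower in these comparisons. Over all genes 5.92% were higher in TKO than in Rb1KO. The shares against WT, which rest on Cnn1 alone, thus lay near the background. Cnn1, calponin 1, was at 10.91, 11.30 and 7.94 in WT, 7.32, 7.26 and 6.81 in Rb1KO and 6.93, 6.66 and 4.95 in TKO, -3.87 in TKO (adjusted p = 0.0041) and -2.92 in Rb1KO (adjusted p = 0.017), and WT replicate 3 was low for it as for Cthrc1, Thbs1, Fbln2 and Mfap5. Acta2, smooth muscle actin, was 5.10-fold lower in TKO-Ras than in TKO (adjusted p = 1.1e-04), the comparison in which Lox and Postn were lower. The list means per array were 7.16 to 8.11 in WT, 7.05 to 7.11 in Rb1KO, 6.85 to 7.19 in TKO and 6.21 to 6.32 in TKO-Ras, and the part of these markers in the matrix gene levels was not tested.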

How the data were processed

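RNA of 12 MEF samples, 4 genotypes with 3 arrays each, was hybridised from 100 ng of total RNA to Affymetrix MOE430 2.0 arrays. The authors normalized them by RMA in Partek Genomics Suite 6.5, as the study's methods and the processing notes state. The deposited values are log2, a scale read from their range of 2.18 to 14.92, and no counts exist, so the number of arrays limits the precision. RMA draws all arrays to 1 distribution, which hides a shift shared by most genes. After removal of 64 control probe sets, 45037 were tested. The platform annotation gave 34945 probe sets 1 gene symbol, 932 several and 9160 none.

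All arrays were fitted together in limma 3.58.1 (R 4.3.3, lmFit and eBayes, 8 residual degrees of freedom) with 4 contrasts. The 2-sided p-values were adjusted by Benjamini-Hochberg over all 45037 probe sets and called under 0.05. All adjusted p-values given are from limma, and the SE of a log2 fold change is printed for some of them, after ±. A group with all arrays at or below 5.13 gives a fold only as "at least", the other group's mean against that level. Promoter windows and gene order were taken from RefSeq (GRCm38.p6). Values on every array are given for the best known gene of each class, for genes with opposite calls and for up to 3 called genes per class and comparison with the largest change among groups that do not overlap. Other genes were added after their values were seen. The genes and lists were chosen with earlier results of these data known. The alternatives were no moderation, an intensity trend, 2 groups per fit, other normalizations, an above-background filter, other probe set choices, a replicate block and leaving out each array, and the script was tested on simulated data.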

Additional observations from a re-analysis of the deposited data

How the results depend on the processing

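With 3 arrays a group, calls near the threshold were fragile. Of the 14 lower and 5 higher genes in TKO against WT, 11 and 2 kept their call under every alternative, as did 14 of 18 lower and 1 of 2 higher genes in Rb1KO against WT, 5 of 8 higher and 4 of 5 lower genes in TKO against Rb1KO, and 5 of 12 lower and 0 of 2 higher genes in TKO-Ras against TKO (limma adjusted p). The cause was not tested. The genes higher in TKO than in WT numbered 3 with ANOVA contrasts without moderation, with only the 2 groups, with cyclic loess and with only probe sets without a suffix, and those higher in Rb1KO than in WT numbered 1 in the same 4 settings. With only the 2 groups, 19 genes were lower in TKO-Ras than in TKO, and with the above-background filter 1 was higher. Leave-one-out counts ranged from 3 to 8 for genes higher in TKO than in WT, from 1 to 2 for those higher in Rb1KO than in WT, from 7 to 13 for those lower and from 0 to 2 for those higher in TKO-Ras than in TKO. With WT replicate 3 and TKO replicate 1 left out together, a choice made after seeing the data, 10 genes were higher in TKO than in WT, 5 higher in Rb1KO than in WT, 13 higher in TKO than in Rb1KO and 19 lower in TKO-Ras than in TKO. With these arrays left out, Lama4 in TKO against WT turned from -0.11 to 1.97 and was called higher (adjusted p = 0.0077). Among the genes picked by rule for values on every array, signs turned only for changes far from the threshold. Eln in TKO against WT was 0.022 after centring arrays on their median. Prelp in TKO against WT was 0.081 with the mean of its probe sets, 0.31 with only probe sets without a suffix and 0.18 without WT replicate 3 and TKO replicate 1, and leave-one-out values ranged from -0.28 to 0.054. Prelp in TKO-Ras against TKO was 0.037 and 0.11 in the first pair of these settings, with leave-one-out values from -0.16 to 0.11. Spon2 in Rb1KO against WT was 0.092 with only probe sets without a suffix, and Tnc in TKO against Rb1KO ranged from -0.059 to 0.71 in leave-one-out. Deviations of same-numbered arrays from their group means correlated weakly (r from -0.21 to 0.19). With 3 arrays a group, this check cannot tell whether samples of the same number were handled together. Under a replicate block Fmod in TKO against WT no longer passed (0.52, adjusted p = 0.071), and Pcolce in Rb1KO against WT passed (-0.41, adjusted p = 0.047), and no other call of the 42 genes changed. Centring moved the median of all genes in TKO against WT from 0.05 to 0.11 and the shares of higher and lower genes from 13.6% and 9.9% to 16.1% and 8.78%, and cyclic loess gave 11.4% and 12%.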
